A study of Mus musculus with 36 samples.

Results

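The Sox and T-box factor genes are 2 families of transcription factor genes, and they were read here through the histone marks at their promoters in whole mouse pancreas. Members were all autosomal protein-coding genes of the GENCODE mouse annotation (mm10) named Sox or Tbx followed by a number, without Sox9 and Tbx21. This gave 28 genes, 17 Sox and 11 Tbx, of 20807 autosomal protein-coding genes. Sox proteins share the HMG box of SRY and T-box proteins share the DNA-binding domain of Brachyury, and both families direct cell identity in the embryo. Polycomb repressive complex 2, whose catalytic subunit is EZH2, trimethylates lysine 27 of histone H3 (K27me3) over promoters of such developmental regulators in cells that do not use them. Trimethylation of lysine 4 (K4me3) sits at starts of active or poised genes.

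K27me3 and K4me3 peak lists came from the pancreas of 6 mice, 3 per genotype. Controls were labelled Wildtype, and by the study's methods were C57BL/6 mice or mice with Mist1creERT alone. EZH2ΔSET mice carried Mist1creERT and lost the SET domain of EZH2. Mice were 2 to 4 months old, and tissue was taken 22 days after tamoxifen gavage began. Mist1creERT recombines in acinar cells, so other pancreatic cells kept EZH2 whole, and both marks at 1 gene cannot be told apart from each mark in different cells. A gene carried a mark in a mouse if any peak of that mouse reached into the 3 kb on either side of 1 of its transcription start sites (TSS). The covered percent is the percent of these windows lying under peaks. It does not give the share of cells that carried a mark.

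Peaks numbered 15782 to 28783 per mouse for K27me3 and 16912 to 25220 for K4me3, and read depth is unknown. All 8 acinar marker genes carried K4me3 in every mouse, and all 4 duct markers did in 5 mice, with 2 of 4 in control replicate 2. Of 6 islet, 5 endothelial, 5 fibroblast and stellate and 3 glial markers, 1 to 2, 1 to 2, 2 to 4 and 1 carried it. Control replicate 2 stood apart. It had the fewest peaks of both marks, 11.7% of its K27me3 peaks overlapped its own K4me3 peaks, against 0.693% to 1.97% in the other mice, and 4 of 5 leukocyte markers carried K4me3 in it, against 0 or 1 elsewhere. Of the 8 acinar markers 3 also carried K27me3 in it, against 0 in the other 5 mice. Control replicate 1 had the lowest K27me3 cover of the members, a mean of 16.5%, against 34.5% to 63.6% in the others. Their part in the results was not tested beyond the values given with and without them.

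The members fell into genes that carried K27me3 in most mice and genes that carried it in few or none. K27me3 was found at 12 of 28 members (42.9%) in 5 or 6 of 6 mice, against 7.07% of all autosomal genes. All 6 mice marked 10 members, 4 Sox and 6 Tbx (35.7% against 3.79% of all genes), and 5 mice marked Sox14 and Tbx3. Sox5 was marked in 4 mice and Sox11 in 3. A further 7 members were marked in 1 mouse (25% against 15% of all genes), which was control replicate 2 at all 7, and 7 in none (25% against 68.9%). K4me3 was split likewise, with 11 members marked in all 6 mice (39.3% against 58.8% of all genes), 6 in some and 11 in none (39.3% against 32.7%). The map of cover by gene and mouse shows the members in the order of their K27me3 cover.

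**Figure D1:**
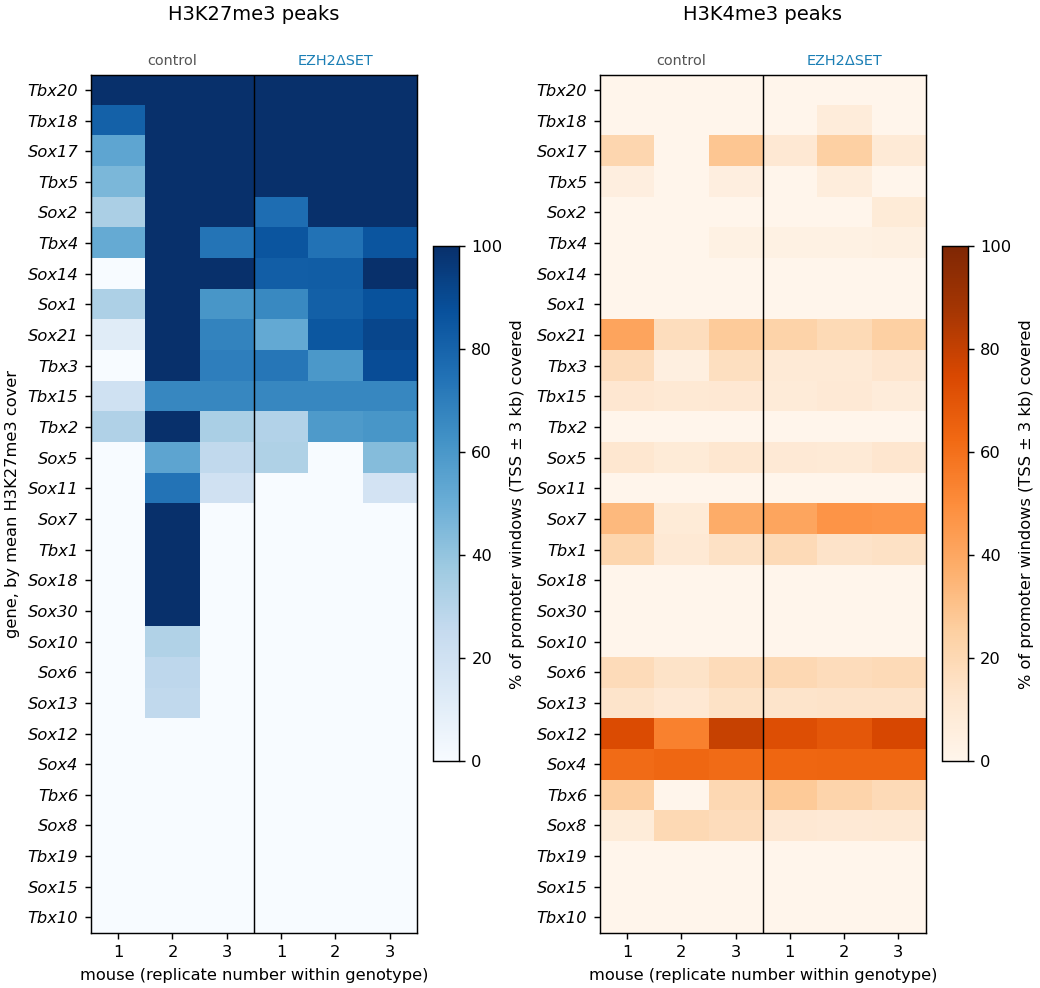
Percent of the promoter windows (TSS ± 3 kb) of each of 28 members covered by H3K27me3 peaks (left, blue) and H3K4me3 peaks (right, orange) in each of 6 mice, grouped by genotype. The upper 12 genes were covered by K27me3 in 5 or 6 mice, control replicate 1 was the palest column among them, and control replicate 2 alone held K27me3 at the 7 genes below Sox11.

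Promoter sequences are shown for members at both ends of this order and for Tbx1 and Sox6 between them, to let the marked and unmarked starts be compared as DNA. They come from the RefSeq table of promoters (build GRCm38.p6), which held 20 of the 28 members, and each runs from 250 bases before to 50 after a start, 5′ to 3′, with CG dinucleotides, the target of DNA methylation, in capitals. Tbx20 and Tbx18 had the highest K27me3 cover. Sox12 and Sox4 had the highest percent of their windows under K4me3 and no K27me3 in any mouse. Tbx1 and Sox6 had K27me3 in 1 mouse and K4me3 in all 6.
Tbx20, chr9:24774254-24774553, minus strand: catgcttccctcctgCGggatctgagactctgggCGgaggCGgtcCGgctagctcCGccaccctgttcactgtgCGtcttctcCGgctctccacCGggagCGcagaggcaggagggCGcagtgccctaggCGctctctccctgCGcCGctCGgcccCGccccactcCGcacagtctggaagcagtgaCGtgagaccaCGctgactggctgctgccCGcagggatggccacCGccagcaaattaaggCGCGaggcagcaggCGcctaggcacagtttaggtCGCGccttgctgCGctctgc
Tbx18, chr9:87731211-87731510, minus strand: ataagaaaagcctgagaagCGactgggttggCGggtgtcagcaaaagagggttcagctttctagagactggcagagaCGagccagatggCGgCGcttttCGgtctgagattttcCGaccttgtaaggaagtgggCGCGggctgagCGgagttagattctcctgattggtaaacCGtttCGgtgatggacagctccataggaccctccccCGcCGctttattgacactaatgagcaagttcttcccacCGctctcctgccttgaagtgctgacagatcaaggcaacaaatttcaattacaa
Sox12, chr2:152397997-152398296, minus strand: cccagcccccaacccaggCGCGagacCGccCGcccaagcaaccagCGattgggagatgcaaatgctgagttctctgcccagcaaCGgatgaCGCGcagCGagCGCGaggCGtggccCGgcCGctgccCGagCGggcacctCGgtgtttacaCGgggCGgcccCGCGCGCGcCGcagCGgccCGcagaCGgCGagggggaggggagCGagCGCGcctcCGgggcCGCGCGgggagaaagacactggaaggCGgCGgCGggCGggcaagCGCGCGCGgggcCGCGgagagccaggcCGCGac
Sox4, chr13:28953650-28953949, minus strand: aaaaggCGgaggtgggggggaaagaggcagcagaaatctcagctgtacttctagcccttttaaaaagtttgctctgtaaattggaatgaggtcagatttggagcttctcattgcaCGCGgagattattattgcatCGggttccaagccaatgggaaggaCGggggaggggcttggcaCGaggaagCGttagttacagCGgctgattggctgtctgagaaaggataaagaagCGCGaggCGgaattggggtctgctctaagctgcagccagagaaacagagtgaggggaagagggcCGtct
Tbx1, first promoter, chr16:18590622-18590921, minus strand: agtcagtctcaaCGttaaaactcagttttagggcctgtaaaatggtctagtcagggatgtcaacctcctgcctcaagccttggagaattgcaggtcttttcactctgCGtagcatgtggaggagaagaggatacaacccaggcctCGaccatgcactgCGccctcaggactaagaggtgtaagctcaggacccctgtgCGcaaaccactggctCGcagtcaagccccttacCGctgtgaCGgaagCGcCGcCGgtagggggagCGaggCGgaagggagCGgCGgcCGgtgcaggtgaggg
Tbx1, second promoter, chr16:18588850-18589149, minus strand: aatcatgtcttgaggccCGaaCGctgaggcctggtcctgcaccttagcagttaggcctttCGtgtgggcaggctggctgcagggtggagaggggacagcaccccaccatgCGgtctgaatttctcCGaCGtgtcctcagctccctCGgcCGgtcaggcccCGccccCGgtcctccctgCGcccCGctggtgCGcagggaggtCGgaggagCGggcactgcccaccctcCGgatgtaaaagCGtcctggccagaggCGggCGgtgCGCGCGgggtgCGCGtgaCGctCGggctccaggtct
Sox6, chr7:116030998-116031297, minus strand: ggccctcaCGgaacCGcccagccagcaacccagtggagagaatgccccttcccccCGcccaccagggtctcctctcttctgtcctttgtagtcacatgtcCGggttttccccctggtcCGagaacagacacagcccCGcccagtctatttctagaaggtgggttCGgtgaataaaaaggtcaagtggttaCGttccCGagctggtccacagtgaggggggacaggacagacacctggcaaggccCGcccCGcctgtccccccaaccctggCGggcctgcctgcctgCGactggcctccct

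The CG counts of these promoters overlapped between marked and unmarked genes. CG, which reads the same on both strands, occurred 26 times in the Tbx20 promoter and 15 times in that of Tbx18, both under K27me3 peaks in 6 mice. It occurred 47 times in the Sox12 promoter and 12 times in that of Sox4, both under K4me3 peaks in 6 mice and K27me3 peaks in 0. The median over 19174 RefSeq promoters of autosomal protein-coding genes was 14, 95.8% held at least 1, and 1.95% held as many as Sox12. The first Tbx1 promoter had 16 and lay under K4me3 peaks in 6 mice, whereas the second had 26 and lay under K4me3 peaks in 0. Each Tbx1 promoter lay under a K27me3 peak in 1 mouse. The Sox6 promoter had 13 and lay under K27me3 peaks in 1 mouse and K4me3 peaks in 6.

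Over the genome sequence within 1 kb of every TSS, the members were rich in CG as a group. Their median was 4.74 CG per 100 bases, against 2.17 for all genes, and 25 of 28 members were above that median. The 12 members with K27me3 in 5 or 6 mice had a median of 4.74, whereas all 1471 genes with K27me3 in as many mice had 1.65. Within the family CG content and K27me3 cover were little related, with a Spearman's rho of 0.17 and a Pearson's r of 0.036 across 28 genes, which share libraries and base composition and are not independent. Sox12 (11.6) and Sox11 (10.8) had the most CG, and Sox12 had no K27me3 in any mouse.

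Of the 11 T-box genes 6 carried K27me3 in all 6 mice. Tbx20, a cardiac factor on chromosome 9, was covered over 100% of its windows in all 6 mice and had no K4me3 peak. The widest K27me3 peak there was 30.6, 32.5 and 29.9 kb in the controls and 29.1, 31.4 and 44.6 kb in EZH2ΔSET mice. The cover of Tbx20 was thus full in both genotypes, control replicate 1 included.

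Tbx18, which acts in the sinoatrial node and ureter, had 81.1% cover in control replicate 1 and 100% in the other 5 mice. Its widest peak was 30.5, 34.8 and 54.1 kb in the controls and 80.7, 38.1 and 68.1 kb in EZH2ΔSET mice, and the genotypes overlapped. A K4me3 peak was found at Tbx18 in 1 mouse, EZH2ΔSET replicate 2. Tbx5, a factor of heart and forelimb, had 46.0% in control replicate 1 and 100% elsewhere, with K4me3 in 3 mice, 2 of them controls. Tbx4, its hindlimb and lung counterpart, had 51.9%, 100% and 73.7% in the controls and 85.8%, 74.3% and 85.8% in EZH2ΔSET mice, with K4me3 in 1 control and 3 EZH2ΔSET mice.

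Tbx4 has 2 separate promoter windows, and the marks differed between them. The first carried K27me3 in 6 mice and K4me3 in 0. The second carried K27me3 in 5 and K4me3 in 4, both in 4. Tbx15, a factor of skeleton and fat, has 3. The first 2 carried K27me3 in 5 and 6 mice and K4me3 in 6 each, and the third, poorest in CG at 0.633 per 100 bases, carried neither mark in any mouse. Its K27me3 cover was therefore 66.7% in 5 mice and 20.3% in control replicate 1.

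The 2 pairs of linked T-box genes were each marked at both ends, except that Tbx3 had no K27me3 in control replicate 1. Tbx3 and Tbx5 start 162 kb apart on chromosome 5, and Tbx2 and Tbx4 start 53.9 kb apart on chromosome 11. No single K27me3 peak spanned either pair in any of 6 mice. Of the interval between Tbx3 and Tbx5, peaks covered 17.9%, 47.7% and 45.6% in the controls and 50.3%, 38.8% and 64.2% in EZH2ΔSET mice. Between Tbx2 and Tbx4 they covered 14.3%, 79.7% and 25.8% in the controls and 36.1%, 18.8% and 29.3% in EZH2ΔSET mice. Control replicate 1 was the lowest mouse in both intervals, and the genotypes overlapped in both.

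Tbx2, a transcriptional repressor, was marked in every mouse but unevenly covered. Its cover was 31.8%, 100% and 33.7% in the controls and 31.1%, 58.7% and 60.5% in EZH2ΔSET mice. The genotypes overlapped, and the 1 mouse at 100% was control replicate 2. Tbx2 had no K4me3 peak in any mouse. Tbx3, its relative on chromosome 5, had 0%, 100% and 69.6% in the controls and 73%, 59.6% and 88.8% in EZH2ΔSET mice, with K4me3 in all 6.

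Among Sox genes the neural B groups and Sox17 were marked. Sox2, the pluripotency and neural progenitor factor, had 33.4%, 100% and 100% K27me3 cover in the controls and 76.2%, 100% and 100% in EZH2ΔSET mice. Its partner in group B1, Sox1, had 32.5%, 100% and 60.2% in the controls and 66%, 81.4% and 86.7% in EZH2ΔSET mice, and no K4me3. Sox14, of the repressing group B2, had 0%, 100% and 100% in the controls and 82.4%, 82.6% and 100% in EZH2ΔSET mice, also without K4me3. Control replicate 1 was below every other mouse at these 3 genes, and the other controls overlapped the EZH2ΔSET mice or, at Sox1, lay on either side of them.

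Sox21, the other B2 gene, carried both marks in all 6 mice. Its K27me3 cover was 11.5%, 100% and 67.6% in the controls and 52.3%, 84.9% and 91.3% in EZH2ΔSET mice. Its K4me3 cover ran the other way in the controls, at 41.3%, 17.2% and 26.7%, and was 23%, 19.5% and 25% in EZH2ΔSET mice. The genotypes overlapped for both marks. The peaks of both marks shared bases in 3 of 6 mice, where K4me3 bases under K27me3 peaks summed to 2697 of 9162 over all mice.

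Sox17, a factor of endoderm and endothelium, had 53.6% K27me3 cover in control replicate 1 and 100% in the other 5 mice, with K4me3 in 5. The K4me3 cover was 21.4%, 0% and 28.6% in the controls and 10.3%, 24.7% and 8.66% in EZH2ΔSET mice. K4me3 was thus missing in control replicate 2, and the genotypes overlapped. In all 5 mice with K4me3 the marks shared bases, 7670 of 9127 K4me3 bases in all.

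Both marks were carried in every mouse by Sox21 and Tbx15, and in 5 mice by Sox17 and Tbx3, which makes 4 of 28 members in 5 or 6 mice, against 1.5% of all genes. At Tbx15 K4me3 lay almost wholly under K27me3, with 9272 of 10047 bases, in 6 of 6 mice. At Tbx3 it did so less, with 2439 of 10826 bases, in 4 mice.

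Sox5 and Sox11 were marked in some mice of each genotype. Sox5, a SoxD factor of cartilage and neurons, had K27me3 in 4 mice and K4me3 in 6. Of its 3 windows the middle one carried K27me3 in 4 mice and K4me3 in 5, the one richest in CG carried K4me3 in 6 and K27me3 in 1, and the other carried neither. K27me3 cover of Sox5 was 0%, 53.9% and 26.5% in the controls and 32.1%, 0% and 43.6% in EZH2ΔSET mice, so it was missing in 1 mouse of each genotype.

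Sox11, a SoxC factor of neuronal differentiation, had K27me3 cover of 0%, 74.2% and 19.8% in the controls and 0%, 0% and 18.2% in EZH2ΔSET mice, and no K4me3. It was thus marked in 2 controls and 1 EZH2ΔSET mouse, and the genotypes overlapped. The difference between EZH2ΔSET and control mice was -25.3 ± 16.3 (SE) percentage points, the largest fall among members with K27me3 in more than 1 mouse, with an adjusted p of 0.88 in limma. Without control replicate 2 it was -3.83 ± 9.36 percentage points.

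The 7 members with K27me3 in 1 mouse were marked in control replicate 2, the library with the most mixed peaks. Sox18, a vascular factor, Sox7, of the same SoxF group, Tbx1, a factor of the pharyngeal arches, and Sox30, a germ cell gene, had 100% cover there. Sox10, a neural crest gene, had 31.5%, and the SoxD genes Sox6 and Sox13 had 27.6% and 26.4%. All 7 had 0% in the other 5 mice. Sox7, Tbx1, Sox6 and Sox13 also had K4me3 in all 6 mice, whereas Sox18, Sox30 and Sox10 had none.

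K4me3 cover was lowest in control replicate 2 at those 4 genes. At Tbx1 it was 21.5%, 9.79% and 15% in the controls and 18.9%, 13.8% and 15.2% in EZH2ΔSET mice. At Sox6, a factor of muscle, cartilage and blood, it was 18.6%, 14.4% and 18.5% in the controls and 20.3%, 17.7% and 19.0% in EZH2ΔSET mice. The K27me3 at Sox6 lay in 1 of its 7 windows, the one richest in CG, with 5 TSS. Windows of Sox6 also contain a start of the protein-coding gene 1110004F10Rik.

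No K27me3 was found in any mouse at 7 members. Sox12 and Sox4, the other SoxC genes, had the highest percent of their windows under K4me3 peaks of all members, with a median cover of 72.9% and 63.3%. Sox8, a SoxE factor, had K4me3 cover of 7.74%, 19.9% and 17.6% in the controls and 10.5%, 9.70% and 10% in EZH2ΔSET mice, which overlapped. Tbx6, a mesoderm factor, had K4me3 in 5 mice, all but control replicate 2. Tbx19, a pituitary factor, Sox15 and Tbx10, a relative of Tbx1, carried neither mark in any mouse, 3 of 28 members against 17.1% of all genes. The window of Sox15 also holds starts of Fxr2 and Mpdu1.

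Where members carried K27me3, the peaks were wide. The median over marked members of the widest peak at the promoter was 7.96, 29.2 and 17.0 kb in the controls and 15.4, 25.6 and 27.9 kb in EZH2ΔSET mice, against 8.57 to 11.5 kb over all marked genes. It was higher for the members in 5 of 6 mice and lower in control replicate 1. Peaks of at least 20 kb were found at 20% to 71.4% of marked members per mouse, against 11.7% to 23.4% of all marked genes. K27me3 covered a median of 33.9% of members at the gene start, 44.6% at 3 kb and 14.3% at 50 kb downstream, against 6.60%, 6.94% and 6.02% of all genes. K4me3 covered 42.9% of members at the start and 3.57% at 3 kb, against 54.3% and 8.09% of all genes.

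**Figure D2:**
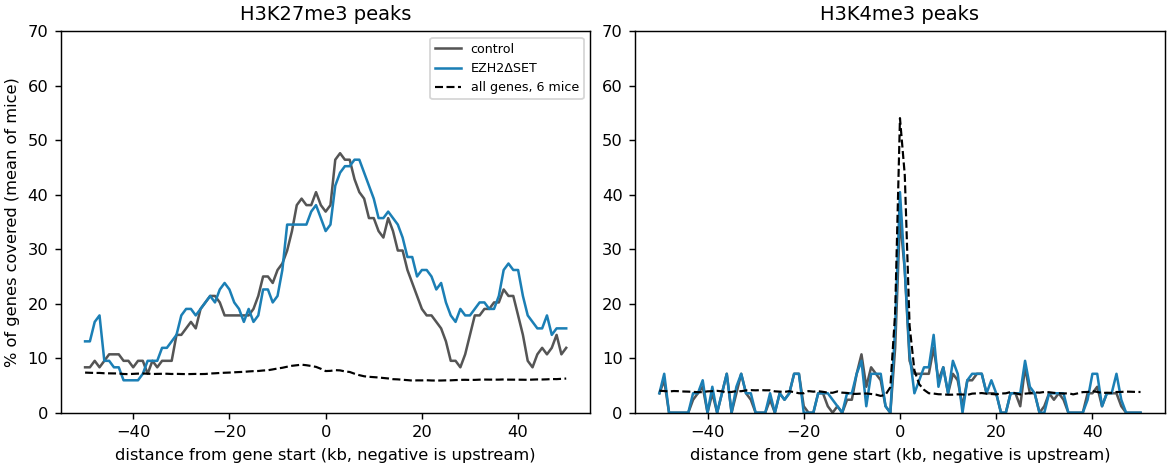
Percent of the 28 members covered by H3K27me3 peaks (left) and H3K4me3 peaks (right) by distance from the gene start in kb, as the mean of 3 mice per genotype (coloured lines), with the mean over all 20807 genes and 6 mice (dashed). The K27me3 of the members was highest within 10 kb of the start in both genotypes, whereas K4me3 stood as a narrow peak at it.

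The number of members with K27me3 was 10, 21 and 14 in the controls and 13, 12 and 14 in EZH2ΔSET mice. The controls had both the lowest and the highest count and so overlapped EZH2ΔSET mice, with 15 ± 5.57 against 13 ± 1 (mean ± SD, n = 3), and no test was made of counts over members. Without control replicate 2, the difference between EZH2ΔSET and control mice turned from -2 to 1. Over all genes the share with K27me3 was 9.03%, 22.9% and 11.0% in the controls and 11.6%, 13.0% and 12.7% in EZH2ΔSET mice, with control replicate 2 again the highest.

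The number with K4me3 was 14, 11 and 15 in the controls and 14, 16 and 15 in EZH2ΔSET mice, or 13.3 ± 2.08 against 15 ± 1. Both marks were found at 4, 8 and 7 members in the controls and 6, 7 and 7 in EZH2ΔSET mice, or 6.33 ± 2.08 against 6.67 ± 0.577. The genotypes overlapped in both counts. Sox genes varied more than Tbx genes, with K27me3 at 4 to 13 of 17 Sox and 6 to 8 of 11 Tbx genes per mouse, and at 4 to 7 and 6 to 7 without control replicate 2.

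**Figure D3:**
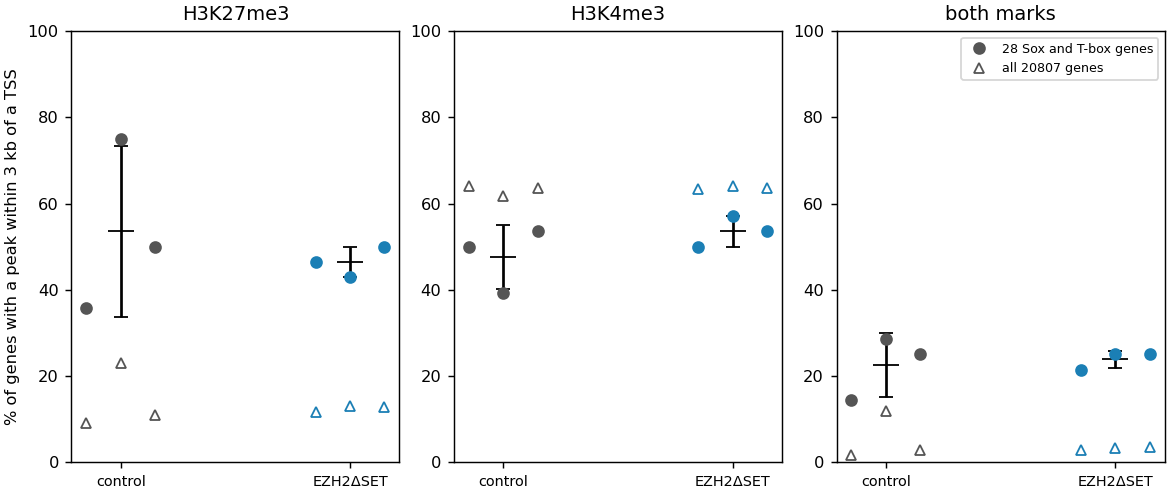
Percent of the 28 members (filled circles) and of all 20807 autosomal protein-coding genes (open triangles) with an H3K27me3 peak, an H3K4me3 peak or both within 3 kb of a TSS, 1 point per mouse, with the mean ± SD of the members (n = 3). Members with K27me3 stood above all genes in every mouse, at 35.7% to 75% against 9.03% to 22.9%, and members with K4me3 below, at 39.3% to 57.1% against 61.8% to 64.1%.

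To ask whether loss of the SET domain changed K27me3 at these genes, promoter cover was compared gene by gene with limma. The fit spanned the 12 mice of the series and the 3789 genes covered in 3 or more of them, 18 of them members. Of these 18 members, 14 were covered in 3 or more of the 6 mice reported here. Sox18, Sox30, Tbx1 and Sox6 entered only through the genotypes not reported, and among the 6 mice control replicate 2 alone covered them. No member passed an adjusted p of 0.05 for EZH2ΔSET against control. An unadjusted p under 0.05 was found at 0 of 18 members and 184 of 3789 genes, and with so few members this does not set them apart. Over all genes the test called 0.0528%. The median difference was 6.54 percentage points over the 18 members and 1.43 over all genes tested. Leaving out control replicate 1 gave -9.46 over the members tested, and leaving out control replicate 2 gave 23.2. With no filter on low values it was 0 over 22 members and -3.51 over all genes, and with windows of 1 kb it was 11.3 over 15 members and 0.455 over all genes. Genotypes did not overlap at 0 of 18 members, where 4.83% of all genes tested did not. With 3 mice against 3, the smallest two-sided exact permutation p is 0.1, so such a gene alone cannot pass. At most of the 18 members control replicate 2 was already at 100%, so EZH2ΔSET mice could not lie above every control. Where control replicate 1 was at 0% they could not lie below. The count of 0 was thus largely set by these bounds and is not a result about the members.

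A wider view, of the 100 kb around the gene start, was added after the data had been seen. No member passed an adjusted p of 0.05 (limma, 21 members of 8411 genes tested), and 3 members were past an unadjusted p of 0.05, Sox1, Sox14 and Tbx18, all with more K27me3 in EZH2ΔSET mice, as were 605 of all genes tested, of which 1 was called. At Tbx18 the cover was 70.5%, 47.5% and 65.8% in the controls and 83.9%, 83.8% and 84.2% in EZH2ΔSET mice. The EZH2ΔSET mice lay within 1 percentage point of each other, and all 3 were above the 3 controls. limma gave a difference of 22.7 ± 6.53 (SE) percentage points, with an adjusted p of 0.33.

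Sox14 had 46.0%, 35.7% and 61.7% in the controls and 66.9%, 80.0% and 79.5% in EZH2ΔSET mice. The controls lay below without overlap, by 27.7 ± 7.24 (SE) percentage points, with an adjusted p of 0.27 in limma. Sox1 had 23.0%, 66.8% and 60.4% in the controls and 68.9%, 70.5% and 81.1% in EZH2ΔSET mice. Control replicate 1 was by far the lowest mouse, and the difference was 23.4 ± 9.49 (SE) percentage points, with an adjusted p of 0.62 in limma. Sox2 had 17.5%, 40.6% and 48.7% in the controls and 35.1%, 55.0% and 47.2% in EZH2ΔSET mice, which overlapped.

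Genotypes failed to overlap in this wider view at 3 of 21 members, Sox1, Sox14 and Tbx18, where 8.26% of all genes tested did. The median difference over the 21 members was -0.65 percentage points, with 10 members higher and 11 lower in EZH2ΔSET mice, and -0.069 over all genes tested. Control replicate 2 was the highest of the 6 mice at each of the 11 lower members, and this median was not taken without it.

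**Figure D4:**
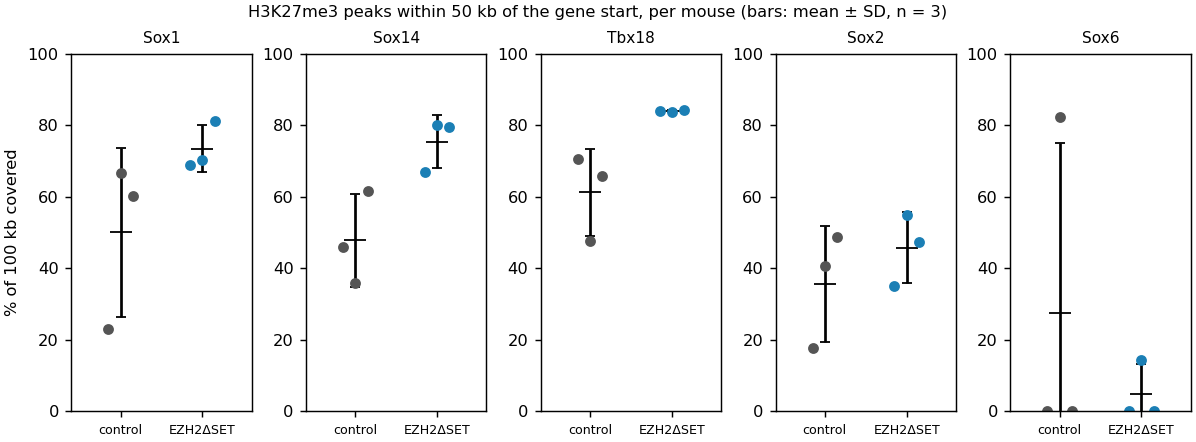
Percent of the 100 kb around the gene start covered by H3K27me3 peaks for 5 members, 1 point per mouse, with mean ± SD (n = 3). Sox1, Sox14 and Tbx18 had all 3 controls below the 3 EZH2ΔSET mice, Sox1 and Sox2 had 1 low control, and at Sox6 control replicate 2 (82.5%) stood far above the rest.

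K4me3 cover was compared over 13651 genes, 16 of them members, of which Sox15 was at 0% in all 6 mice. No member passed an adjusted p of 0.05 (limma) for EZH2ΔSET against control, and over all genes the test called 0.0366%. Without adjustment 2 members had p under 0.05, Sox7 and Tbx15, of 883 genes. The median difference was 0.27 percentage points over the members and 0.70 over all genes tested. Genotypes did not overlap at 3 of 16 members, with Sox7 and Sox4 higher and Tbx15 lower in EZH2ΔSET mice, where 11.6% of all genes tested did not. Without control replicate 2 the median difference turned to -1.83 over the members, 5 higher and 10 lower, and was 0.14 over all genes. An unadjusted p under 0.05 (limma) was then found at 4 members, 1 higher and 3 lower, and at 716 genes. Without control replicate 1 or 3 the median over the members was 0.88 or 0.79.

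Sox7, of the vascular SoxF group, had the largest K4me3 difference of the members with all mice in the fit. Its cover was 33.5%, 8.35% and 38.2% in the controls and 40.6%, 47.2% and 46.2% in EZH2ΔSET mice, which lay above the controls without overlap. limma gave 18.0 ± 6.32 (SE) percentage points, with an adjusted p of 0.73. Control replicate 2, the lowest mouse, was also the only mouse with K27me3 at Sox7, and without it the difference was 8.84 ± 2.49 percentage points with an adjusted p of 0.53. The differences of Sox21 (-11.5 ± 4.43) and Sox17 (-10.5 ± 6.61) were then larger in size. Sox4 lay at 61.6%, 63.1% and 61.7% in the controls and 63.5%, 63.7% and 63.7% in EZH2ΔSET mice, a difference of 1.48 ± 1.03 (SE) percentage points with an adjusted p of 0.76 in limma.

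Tbx15 had 11%, 10.1% and 10.2% K4me3 cover in the controls and 7.89%, 9.40% and 7.26% in EZH2ΔSET mice. The 3 controls were above the 3 EZH2ΔSET mice, control replicate 2 included. The difference in limma was -2.24 ± 0.758 (SE) percentage points, with an adjusted p of 0.71. Tbx3, a repressor that acts in heart and limb, had 17.8%, 4.65% and 16.7% in the controls and 9.07%, 9.32% and 11.9% in EZH2ΔSET mice. Control replicate 2 lay below and the other controls above the EZH2ΔSET mice. The difference at Tbx3 was -2.98 ± 2.92 (SE) percentage points, with an adjusted p of 0.80 in limma, and without control replicate 2 it was -7.19 ± 1.17 percentage points with an adjusted p of 0.090, the lowest over 12 alternatives, whose adjusted p ranged up to 1. Without control replicate 1 it was -0.598 and without control replicate 3 it was -1.15 percentage points.

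**Figure D5:**
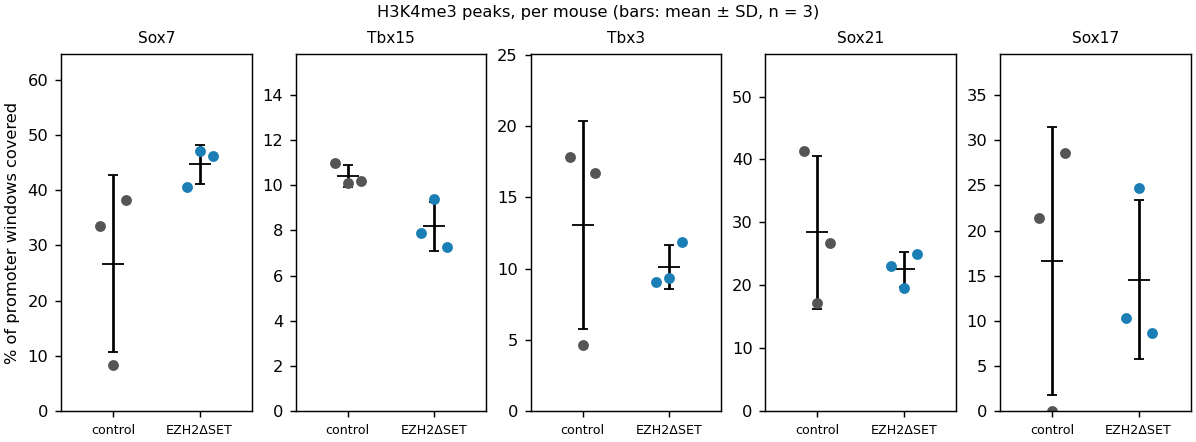
Percent of the promoter windows covered by H3K4me3 peaks for 5 members, 1 point per mouse, with mean ± SD (n = 3), on axes that start at 0 and differ by gene. EZH2ΔSET mice were highest at Sox7 and the 3 controls highest at Tbx15, and at Sox7, Tbx3, Sox21 and Sox17 the lowest of 6 mice was control replicate 2.

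Sox and T-box genes outside the rule fell into the same kinds. Eomes, a T-box factor of endoderm and lymphocytes, had K27me3 in 5 mice and K4me3 in 6, Tbr1, of the cortex, K27me3 in 6 and K4me3 in 1, and T (Brachyury) K27me3 in 5 and K4me3 in 0. Sox9, which marks ducts and centroacinar cells, had K4me3 in 6 mice with a mean cover of 80.5% and K27me3 in 1. Mga and Tbx21 had K4me3 in 6 and K27me3 in 0. Of 10 partner factors of Sox and T-box proteins, 6 to 10 carried K27me3 and 6 to 8 K4me3 per mouse. The cardiac partners Nkx2-5 and Hand1 had K27me3 in 6 mice and K4me3 in 0, as Tbx20 did, whereas Gata4 had K4me3 in 6 and K27me3 in 1.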

How the data were processed

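Chromatin from whole pancreas was immunoprecipitated for K27me3 and K4me3. The authors aligned reads with Bowtie2 to mm10, checked them with FastQC and called peaks per mouse against the mouse's own input with HOMER (versions not given in the sources used here). Replicates were not pooled. The deposited peak lists hold a position per peak, and their score column is 1 throughout, so no peak height or depth was used. The lower limit of width was 5001 bp for K27me3 and 501 bp for K4me3. Values are given for 6 mice of 2 genotypes. The other genotypes of the series entered the limma fit and are not reported here. Inputs were not analysed here.

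Peaks were intersected with windows of 3 kb on either side of every TSS of the GENCODE annotation with Python 3.11.15, and covered percents of genes covered in 3 or more mice were compared with limma 3.58.1 (R 4.3.3) over all 12 mice, with adjustment by Benjamini-Hochberg over all genes tested. Whether mice of one genotype came from separate litters is not stated, so p-values measure only the spread between these mice. The scripts were tested on simulated data. Members and lists were chosen with earlier results of these data known. Genes named with values per mouse were, over the 12 mice of the series, members with K27me3 in 4 to 11 mice, members with an unadjusted p under 0.05 in a limma comparison, and the 4 with the highest and 4 with the lowest K27me3 cover. Genes named outside this rule were chosen after their values were seen.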

Additional observations from a re-analysis of the deposited data

How the results depend on the processing

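Read depth is unknown, and a missing peak may be a missed one. For EZH2ΔSET against control, among alternatives other than leaving out 1 mouse, differences in member counts kept their sign in 6 of 7 for K27me3, 4 of 5 for K4me3 and 4 of 7 for both marks, where the median over mice gave 0 and 2 turned sign. The cause of the changes of sign was not tested. With K27me3 peaks of at least 10 kb, the mean difference in members with K27me3 became 0.667 (from -2). With the widest peaks in equal numbers, that in K4me3 became -1.33 (from 1.67) and that in both marks -2 (from 0.333). With the gene record start only, both marks gave -0.667. Leaving out 1 mouse at a time gave differences of -4.5 to 1 for K27me3, which was 1 without control replicate 2, 0.5 to 2.5 for K4me3 and -0.833 to 1.17 for both marks, which was -0.833 without control replicate 1.

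limma called 0 members for either mark under every alternative run. The K4me3 differences of Sox7, Tbx15 and Tbx3 kept their direction under 12 alternatives. Sox7 and Tbx15 had adjusted p of 0.31 to 0.95 and 0.39 to 0.95, and the differences of Sox7, Tbx15 and Tbx3 ranged from 8.84 to 23.8, -2.85 to -1.78 and -7.19 to -0.598 percentage points over mice left out. Tbx15 gave -7.26 with the widest peaks in equal numbers and -5.65 with windows of 1 kb (from -2.24), and Tbx3 -0.834 and -1.90 (from -2.98). With only the control and EZH2ΔSET mice in the fit, an alternative added after the data had been seen, calls over all genes went from 2 to 0 for K27me3 and from 5 to 0 for K4me3. Without control replicate 2 they were 8 and 17.

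The replicate block changed no call, with 0 members called for either mark. For K27me3 the numbers did not pair the mice. Deviations of same-numbered mice correlated from -0.219 to 0.0841 there, and 1 of 6 mice correlated best with its own number. For K4me3 these correlations were 0.0749 to 0.251, with a median of 0.2 against -0.132 for other numbers. There 5 of 6 mice correlated best with their own number, and the main fit had no term for it. Over all genes the block moved K27me3 calls from 2 to 3 and K4me3 calls from 5 to 4.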
